A study of Caenorhabditis elegans with 8 samples.

Results

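The 10 genes described here encode superoxide dismutases (sod-1 to sod-5), catalases (ctl-1 to ctl-3) and peroxiredoxins (prdx-2 and prdx-3) of the nematode Caenorhabditis elegans. They were taken by symbol, and all 10 were found among the 46726 genes counted in each library. RNA of whole animals was sequenced after ribosomal RNA depletion in 4 groups of 2 libraries. The groups were hizr-1 mutants with cadmium chloride, hizr-1 mutants without it, wild-type N2 animals with cadmium chloride and N2 animals without it. The mutant is an N2 derivative that carries the loss-of-function allele am286 of hizr-1, which encodes a nuclear receptor of the high zinc response. Mixed-stage populations of both strains were grown in parallel for 4 days and then kept for 16 to 18 h at 20 °C on noble agar minimal medium with E. coli OP50. The labels give the cadmium chloride as 100 mM, a unit that could not be checked here, and 10 plates were pooled into each sample. The series design calls the 2 samples of a group biological samples, and these are pools of plates handled side by side, whose spread is what the p-values measure.

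Superoxide dismutases turn superoxide into hydrogen peroxide, and catalases and peroxiredoxins remove hydrogen peroxide. In C. elegans, sod-1, sod-4 and sod-5 encode enzymes of the copper and zinc type, and sod-2 and sod-3 encode mitochondrial enzymes of the manganese type. SOD-1 is the main cytosolic form, SOD-4 is extracellular or membrane-bound, and sod-3 and sod-5 are minor genes known to be induced in the dauer stage and by the FOXO factor DAF-16. CTL-2 is the peroxisomal catalase and CTL-1 a cytosolic one. PRDX-2 is a cytosolic and PRDX-3 a mitochondrial thioredoxin-dependent peroxidase. Cadmium is not itself redox-active but binds thiols, and transcripts of antioxidant enzymes are often measured after exposure to it.

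The libraries held 17681352 to 29586507 counts. The targeted gene hizr-1 had 20 and 18 counts in cadmium-treated mutants, 18 and 7 in untreated mutants, 101 and 77 in cadmium-treated wild type and 57 and 52 in untreated wild type. Mutants against wild type were at a log2 difference of -2.16 ± 0.35 (SE) with cadmium (edgeR quasi-likelihood test, adjusted p = 0.00635) and -1.99 ± 0.38 without (adjusted p = 0.0931). In the wild type the exposure was visible in known cadmium-responsive genes. In cadmium-treated against untreated wild type the log2 difference was 5.70 ± 0.19 (SE) for the metallothionein gene mtl-1 (edgeR quasi-likelihood test, adjusted p = 9.48e-09), 5.26 ± 0.30 for mtl-2 (adjusted p = 7.76e-05) and 6.87 ± 0.30 for cdr-1 (adjusted p = 1.8e-07). In cadmium-treated against untreated mutants none of these genes passed. Their log2 differences there were -0.01 ± 0.19 for mtl-1, 0.08 ± 0.36 for mtl-2 and -0.11 ± 0.29 for cdr-1. These genes thus do not show whether the mutants were exposed. Markers of whole-animal tissues were present. All 18 intestinal, 15 muscle, 23 neuronal, 15 hypodermal and 26 oocyte and early embryo markers passed the filter on low counts, as did 45 of 50 sperm markers, of which msp-79 and msd-1 were at 0 in every library. RNA of whole animals cannot tell fewer cells of a type from less RNA per cell.

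None of the antioxidant enzyme genes tested passed the test with cadmium or between the genotypes. Of the 10 genes, 9 passed the filter on low counts and were tested. The tenth, sod-5, had 1 to 14 counts per library and was not. In cadmium-treated against untreated mutants 0 of 9 passed an adjusted p of 0.05, where 0.0316% of the 15818 genes tested did. In cadmium-treated against untreated wild type 0 of 9 passed, against 0.284% of all genes. In untreated mutants against untreated wild type 0 of 9 passed, against 0.126%. In cadmium-treated mutants against cadmium-treated wild type 0 of 9 passed, against 4.26%. For the interaction, which takes the wild type's cadmium response away from the mutant's, 0 of 9 passed, against 0.114%. With such backgrounds a count of 0 among 9 genes does not set them apart from other genes. By DESeq2, too, 0 passed in each of the 5 comparisons, although with cadmium in the wild type it gave an adjusted p for only 8 of the 9, with none for ctl-1.

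The median log2 difference of the 9 genes was 0.04 with cadmium in the mutant and 0.04 with cadmium in the wild type, beside 0.0017 and -0.01 over all genes tested. It was 0.02 for untreated mutants against untreated wild type and -0.06 for treated mutants against treated wild type, beside -0.02 and -0.01 over all genes. For the interaction it was 0.01, beside 0.03 over all genes. Unadjusted p was below 0.05 for 1 of 9 genes with cadmium in the wild type (ctl-2; 11.5% of all genes), 1 of 9 between the treated genotypes (ctl-2; 11.2%) and 1 of 9 in the interaction (ctl-1; 3.24%). It was below 0.05 for 0 of 9 genes with cadmium in the mutant (1.78% of all genes) and 0 of 9 between the untreated genotypes (10.8%).

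**Figure D1:**
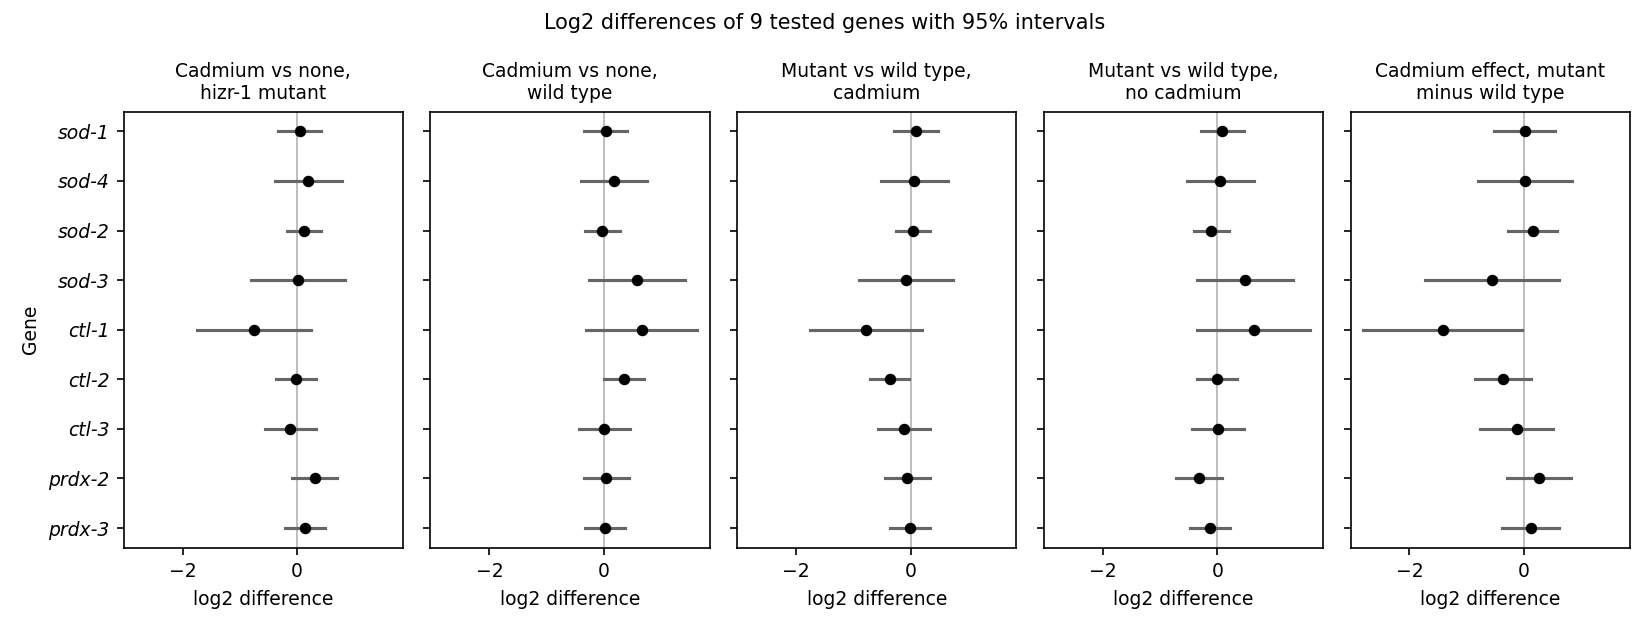
Log2 differences (horizontal axis, points) with their 95% intervals (lines) for the 9 tested genes (vertical axis) in the 5 comparisons, from the fit across all genes. The intervals of sod-1, sod-2, sod-3, sod-4, ctl-3, prdx-2 and prdx-3 span 0 in all 5 comparisons. Those of ctl-2 leave out 0 with cadmium in the wild type and between the treated genotypes, and that of ctl-1 in the interaction, before adjustment. The intervals of sod-3 and ctl-1 are the widest, and ctl-1 stands at -1.42 in the interaction. Intervals are wider in the interaction than in the other comparisons, such as -0.76 to 0.50 for ctl-3.

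Levels per kilobase of exon (RPKM with scaled library sizes) spanned a wide range over the family. The order by the mean of the 8 libraries was prdx-2 with 854, sod-1 with 234.8, prdx-3 with 177, sod-2 with 114, ctl-2 with 34.5, sod-4 with 6.72, ctl-3 with 5.44, sod-3 with 4.30, ctl-1 with 0.473 and sod-5 with 0.294 RPKM. The steps below prdx-2, prdx-3, sod-2, ctl-2 and sod-3 were larger than the whole spread of the libraries. The RPKM of sod-1 and prdx-3 overlapped over libraries, although sod-1 was above prdx-3 within each of the 8. Neighbours further down did not differ beyond their spread: sod-4 was above ctl-3 in 6 of 8 libraries, ctl-3 above sod-3 in 6 of 8, and ctl-1 above sod-5 in 6 of 8.

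**Figure D2:**
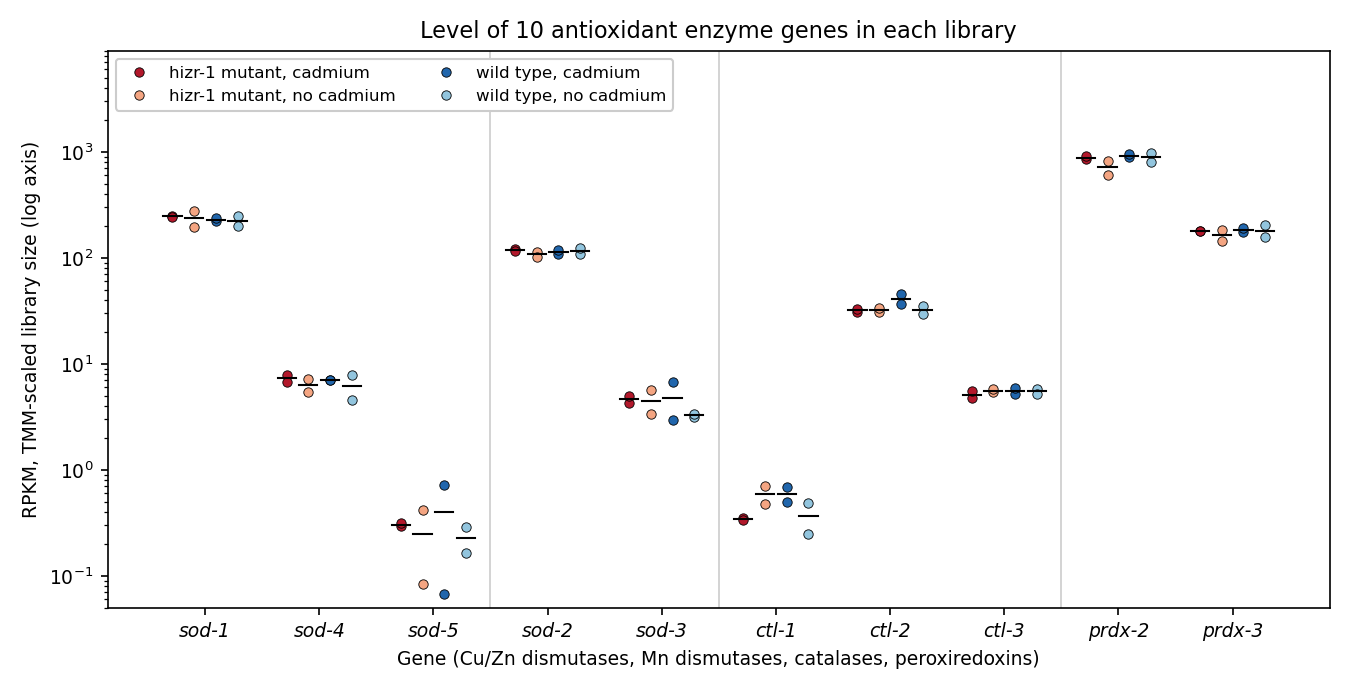
RPKM on a log axis (vertical) of the 10 genes (horizontal) in each of the 8 libraries, with points for libraries, colours for the 4 groups and black bars for the mean of the 2 libraries of a group. The genes span from 854 RPKM for prdx-2 to 0.294 for sod-5, while sod-4, ctl-3 and sod-3 lie close together with overlapping libraries.

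One gene led each enzyme family in every library. Of the summed RPKM of the 5 superoxide dismutase genes, sod-1 took 63.1 to 68.6% and sod-2 28.2 to 34.4% over the 8 libraries. The minor genes took 1.455 to 2.06% (sod-4), 0.806 to 1.93% (sod-3) and 0.0186 to 0.21% (sod-5). The sum of the 5 genes was 381 and 372 RPKM in treated mutants, 408 and 308 in untreated mutants, 346 and 367 in treated wild type and 317 and 385 in untreated wild type. Among the catalase genes ctl-2 took 83.9 to 88.5%, ctl-3 10.1 to 14.97% and ctl-1 0.707 to 1.75% of the sum. Across all 10 genes, prdx-2 alone took 55.2 to 61.2% of the summed RPKM.

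Among the copper and zinc dismutases, sod-1 (WBGene00004930, build WBcel235, chromosome II, 6972712 to 6973892, - strand) had group means between 164 and 180.1 CPM, with counts taken relative to scaled library size. Its level was 181 and 179 CPM in treated mutants, 205 and 144 in untreated mutants, 163 and 174 in treated wild type and 147 and 182 in untreated wild type. The 2 untreated mutant libraries were the highest and the lowest of the 8. The log2 difference with cadmium was 0.04 ± 0.17 (SE; 95% interval -0.34 to 0.42) in mutants and 0.03 ± 0.17 (-0.35 to 0.41) in wild type. As a fold, the wild-type interval runs from 0.787 to 1.33.

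The extracellular dismutase gene sod-4 (WBGene00004933, III, 9497011 to 9500204, - strand) had 8.26 and 7.11 CPM in treated mutants, 7.66 and 5.74 in untreated mutants, 7.34 and 7.34 in treated wild type and 4.85 and 8.21 in untreated wild type. Treated and untreated libraries overlapped in both strains. The log2 difference with cadmium was 0.20 ± 0.27 in the mutant and 0.18 ± 0.27 in the wild type. Of the 1051 exon bases of sod-4, 310 overlap exons of ctr-9 on the other strand, which had 3977 to 6967 counts per library against 105 to 257 for sod-4. Since no strand setting is given in the sources used here, reads of the shared bases cannot be assigned.

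The inducible gene sod-5 (WBGene00007036, II, 4417683 to 4419131, + strand) was close to the limit of detection. It had 6 and 4 counts in treated mutants, 7 and 1 in untreated mutants, 14 and 1 in treated wild type and 3 and 4 in untreated wild type. Treated wild type held both the highest count and, with untreated mutants, the lowest. A floor of 3 counts corresponds to 0.101 to 0.17 CPM before scaling, so no fold is given. Fitted with no filter on low counts, sod-5 had an adjusted p of 0.866 for cadmium in the wild type and 1 in the mutant.

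Of the manganese dismutases, sod-2 (WBGene00004931, I, 8434489 to 8435814, + strand) was the steadiest of the 10 genes, with a coefficient of variation of 6.31% over the 8 libraries. It had 105 and 101 CPM in treated mutants, 100.0 and 88.7 in untreated mutants, 95.5 and 103.6 in treated wild type and 94.8 and 108 in untreated wild type. In the mutant the treated libraries lay above the untreated ones, by a log2 difference of 0.13 ± 0.14 (-0.17 to 0.42), and in the wild type they overlapped, with -0.02 ± 0.14 (-0.32 to 0.27). The wild-type interval corresponds to a fold of 0.799 to 1.21.

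The second manganese gene, sod-3 (WBGene00004932, X, 17092718 to 17094223, + strand), is the member known as a reporter of DAF-16 activity, and it had 51 to 163 counts per library. It had 3.53 and 4.18 CPM in treated mutants, 4.73 and 2.79 in untreated mutants, 5.57 and 2.46 in treated wild type and 2.64 and 2.80 in untreated wild type. The 2 treated wild-type libraries were the highest and the lowest of all 8, and the second of them lay below both untreated ones. The log2 difference was 0.02 ± 0.38 (-0.81 to 0.84) with cadmium in mutants and 0.58 ± 0.38 (-0.26 to 1.41; adjusted p = 0.587) in wild type. Without replicate 1 of treated wild type it was -0.14, and without replicate 2 it was 1.03 (adjusted p = 0.195), so the sign rested on 1 library.

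Some exon blocks of the dismutase genes have the same length in the files. Both sod-2 and sod-3 have exons of 173 and 137 bases, and both sod-1 and sod-5 have exons of 159 and 154 bases, neither of which occurs in sod-4. Shorter overlaps with genes on the other strand concern sod-1 (79 exon bases with the non-coding RNA gene C15F1.13, at 0 counts in all libraries), sod-2 (28 bases with dpt-1) and sod-3 (65 bases with C08A9.3, at 0 to 3 counts). The gene dpt-1 had 3131 to 5199 counts per library, against 1623 to 3276 for sod-2.

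The 3 catalase genes lie side by side on chromosome II on the - strand. They are ctl-2 (WBGene00000831, 14299553 to 14302050), ctl-1 (WBGene00000830, 14303612 to 14306293) and ctl-3 (WBGene00013220, 14307854 to 14310779). The gaps between them are 1561 and 1560 bases, with 0 other genes lying wholly within a gap, and each gene has exons of 273 and 645 bases. How reads that match several copies were counted is not given in the sources used here, so the split between the copies, the low value of ctl-1 included, is uncertain.

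The peroxisomal catalase gene ctl-2 came closest to a difference, without passing. It had 50.6 and 54.1 CPM in treated mutants, 50.1 and 55.5 in untreated mutants, 74.5 and 60.5 in treated wild type and 57.9 and 48.0 in untreated wild type. Both treated wild-type libraries lay above the other 6. The log2 difference with cadmium was 0.35 ± 0.16 in the wild type (0.0007 to 0.70; unadjusted p = 0.0496, adjusted p = 0.435 by edgeR's quasi-likelihood test) and -0.01 ± 0.16 (-0.36 to 0.34) in the mutant. Treated mutants were below treated wild type by a log2 difference of -0.37 ± 0.16 (-0.72 to -0.02; adjusted p = 0.385 by edgeR). The difference between the strains' responses was -0.36 ± 0.23 (-0.85 to 0.13; adjusted p = 0.9995 by edgeR), which did not pass. Without replicate 1 of treated wild type the wild-type value was 0.19, and without replicate 2 of untreated wild type it was 0.22. With each library left out in turn, treated mutants against treated wild type stood at -0.51 to -0.21 and the interaction at -0.50 to -0.20, both nearest to 0 without replicate 1 of treated wild type. Of the exon bases of ctl-2, 291 overlap Y54G11A.7 on the other strand, a gene with 378 to 839 raw counts per library. Its raw count was highest in replicate 1 of treated wild type, where 23.6% of all genes tested peaked in CPM. The part of its reads in the value of ctl-2 was not tested.

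The cytosolic catalase gene ctl-1 had 8 to 31 counts per library. Its level was 0.546 and 0.516 CPM in treated mutants, 0.742 and 1.09 in untreated mutants, 1.06 and 0.761 in treated wild type and 0.749 and 0.379 in untreated wild type. Treated libraries lay below untreated ones in the mutant and above them in the wild type, where the nearest libraries had 0.761 (treated) and 0.749 CPM (untreated). The log2 difference was -0.75 ± 0.46 (-1.76 to 0.25) in mutants and 0.66 ± 0.44 (-0.30 to 1.63) in wild type. The interaction was -1.42 ± 0.64 (-2.81 to -0.03; unadjusted p = 0.0464, adjusted p = 0.9995 by edgeR), which did not pass. Between the genotypes it was -0.78 ± 0.45 with cadmium and 0.64 ± 0.45 without. With each library left out in turn these were -0.98 to -0.51 (-0.51 without replicate 1 of treated wild type) and 0.26 (without replicate 2 of untreated wild type) to 1.23 (without replicate 1).

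The third catalase gene, ctl-3, varied little, with a coefficient of variation of 7.11% over the 8 libraries. It had 7.45 and 8.71 CPM in treated mutants, 8.48 and 9.07 in untreated mutants, 8.20 and 9.27 in treated wild type and 9.13 and 8.21 in untreated wild type. Groups overlapped in each of the 4 pairwise comparisons. The log2 difference with cadmium was -0.12 ± 0.21 (-0.57 to 0.33) in mutants and 0.01 ± 0.21 (-0.44 to 0.45) in wild type.

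The cytosolic peroxiredoxin gene prdx-2 (WBGene00006434, II, 5378063 to 5379636, + strand) was the most abundant of the 10. It had 756 and 793 CPM in treated mutants, 721 and 534 in untreated mutants, 784 and 829 in treated wild type and 709.6 and 854 in untreated wild type. Replicate 2 of the untreated mutants was the lowest library by far, and the other 7 lay between 709.6 and 854 CPM. The log2 difference with cadmium was 0.30 ± 0.18 (-0.09 to 0.70) in mutants and 0.04 ± 0.18 (-0.35 to 0.44) in wild type. Untreated mutants stood at -0.32 ± 0.18 (-0.71 to 0.08; adjusted p = 0.59) against untreated wild type. With each library left out in turn that value was -0.55 (without replicate 1 of the untreated mutants) to -0.085 (without replicate 2). Without replicate 2 of the untreated mutants the mutant's difference with cadmium was 0.10, and without replicate 1 it was 0.54.

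The mitochondrial peroxiredoxin gene prdx-3 (WBGene00011110, III, 4407444 to 4408437, + strand) had 139 and 139 CPM in treated mutants, 141 and 112 in untreated mutants, 134 and 146 in treated wild type and 120.3 and 157 in untreated wild type. The 2 untreated mutant libraries lay on either side of the treated ones, and so did the 2 untreated wild-type libraries. The log2 difference with cadmium was 0.14 ± 0.16 (-0.22 to 0.49) in mutants and 0.02 ± 0.16 (-0.34 to 0.37) in wild type. A further peroxiredoxin gene, prdx-6, which encodes the atypical form and is not among the 10, had 27.02 and 28.1 CPM in treated mutants, 28.9 and 23.5 in untreated mutants, 21.1 and 27.8 in treated wild type and 20.2 and 33.4 in untreated wild type. Its log2 difference with cadmium was 0.07 ± 0.24 in the mutant and -0.13 ± 0.24 in the wild type.

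The groups did not overlap for 0 to 3 of the 9 genes, depending on the comparison. With cadmium in the mutant these were 3 of 9 (sod-2 and prdx-2 higher, ctl-1 lower), where 31.5% of all genes tested did not overlap. With cadmium in the wild type they were 2 of 9 (ctl-1 and ctl-2, both higher), against 39.6% of all genes. Treated mutants and treated wild type did not overlap for 3 of 9 (sod-1 higher, ctl-1 and ctl-2 lower), against 36.5%. Untreated mutants and untreated wild type overlapped for all 9 genes, where 38.5% of all genes did not.

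Some single libraries held the highest or lowest value for several of the genes. Replicate 1 of treated wild type was the highest of the 8 libraries for sod-3, sod-5 (14 counts) and ctl-2. These 3 of the 10 genes are near the share over all genes tested, of which 23.6% peaked in that library. In the same library the summed CPM of intestinal, muscle, neuronal and hypodermal markers was also the highest. For intestine (18 of 18 markers) it was 8631, against 7324 in the other treated wild-type library, 6761 and 6985 in treated mutants, 6566 and 6399 in untreated mutants and 7323 and 6884 in untreated wild type. The median log2 CPM of the 18 intestinal markers was not the highest there, at 7.37, with 7.28 in the other treated wild-type library, 7.34 and 7.32 in treated mutants, 7.23 and 7.39 in untreated mutants and 7.51 and 7.29 in untreated wild type. For muscle (15 of 15) the sum was 8609, against 5510 to 8442 in the other 7 libraries. For neurons (23 of 23) it was 885, against 565 to 746 in the other 7 libraries, and for hypodermis (15 of 15) 1478, against 786 to 995. The summed sperm markers (45 of 50) were lowest there, at 44.5 CPM, with 93.1 in the other treated wild-type library, 351 and 377 in treated mutants, 499 and 241 in untreated mutants and 105 and 307 in untreated wild type. The part of these markers in the values of sod-3, sod-5 and ctl-2 was not tested.

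Replicate 2 of the untreated mutants had the lowest value for sod-1, sod-2, prdx-2 and prdx-3, 4 of the 10 genes, and 18.8% of all genes tested were lowest in it. The median log2 CPM of 78 ribosomal protein genes, a list chosen after the data were seen, was 9.35 in that library. It was 10.22 and 10.20 in treated mutants, 10.32 in the other untreated mutant library, 9.69 and 9.89 in treated wild type and 9.63 and 10.46 in untreated wild type. The highest library for sod-2, prdx-2 and prdx-3, 3 of the 10 genes, was replicate 2 of untreated wild type, where 14.9% of all genes tested peaked. That library was also the highest for the ribosomal list, while sod-1 was highest in replicate 1 of the untreated mutants. The part of that list in the values of these genes was not tested.

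**Figure D3:**
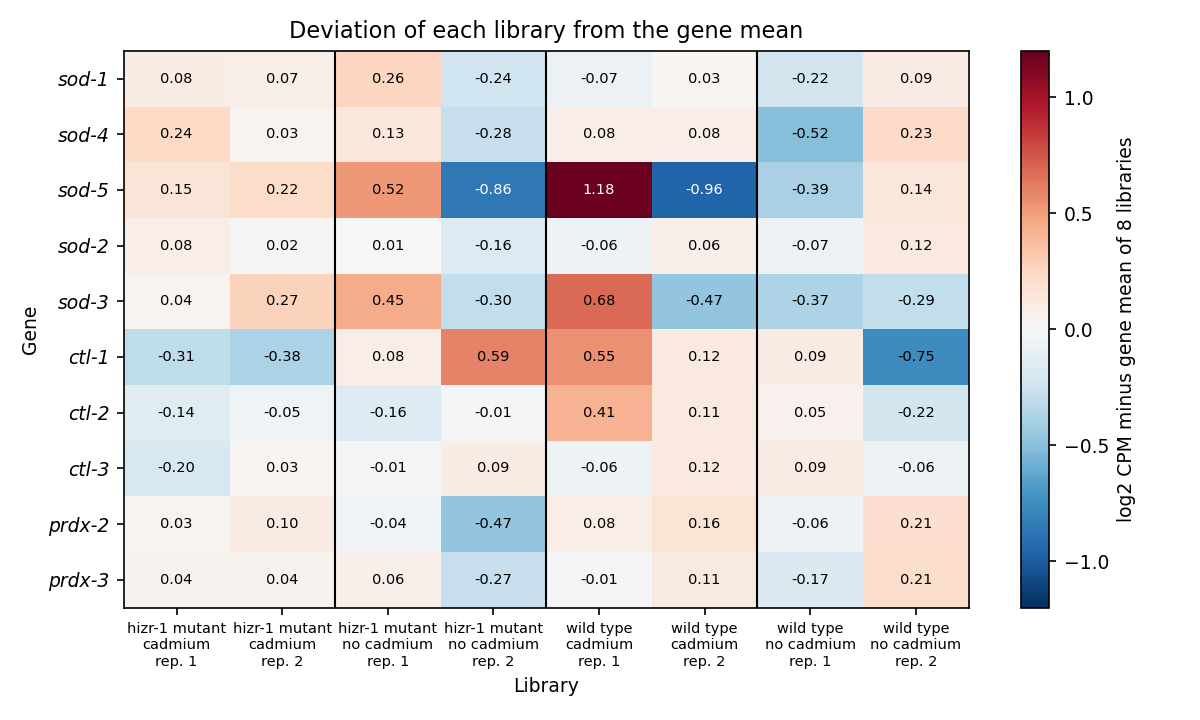
Log2 CPM of each of the 10 genes (rows) in each of the 8 libraries (columns) minus that gene's mean over the libraries, with the value printed in each cell and red for above, blue for below. Replicate 1 of treated wild type stands out for sod-5 (1.18, from 14 counts), sod-3 (0.68), ctl-1 (0.55, from 31 counts) and ctl-2 (0.41). Replicate 2 of the untreated mutants is below the mean for sod-5 (-0.86), prdx-2 (-0.47), sod-3 (-0.30), sod-4 (-0.28), prdx-3 (-0.27), sod-1 (-0.24) and sod-2 (-0.16). It is above the mean for ctl-1 (0.59). Counts per library are low for sod-5 (1 to 14) and ctl-1 (8 to 31), so their deviations are uncertain.

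Lists of genes that work with these enzymes are given by their counts and medians. Against the shares of all genes called, 0.0316 to 4.26% over the 5 comparisons, a count of 0 in lists of this size does not set them apart. Of 8 tested genes of the thioredoxin system, which recycles peroxiredoxins, 0 passed in each of the 5 comparisons. Its median log2 difference with cadmium was 0.06 in the mutant and -0.02 in the wild type. The cytosolic thioredoxin reductase gene trxr-1 was at -0.17 ± 0.14 in the mutant and -0.02 ± 0.14 in the wild type. Of 16 genes of the glutathione system 0 passed in each comparison, with medians of 0.13 in the mutant and 0.04 in the wild type. The rate-limiting gene of glutathione synthesis, gcs-1, was at -0.04 ± 0.15 in the mutant and 0.00022 ± 0.15 in the wild type. Of 8 haem peroxidase and oxidase genes, among them the dual oxidase gene bli-3, 0 passed in each comparison, with medians of -0.15 in the mutant and 0.08 in the wild type. Of 22 peroxisome genes 0 passed in each comparison, with medians of -0.13 in the mutant and 0.13 in the wild type. Of 16 regulators of the oxidative stress response, among them skn-1, its repressor wdr-23 and daf-16, 0 passed in each comparison, with medians of -0.04 in the mutant and -0.13 in the wild type.

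Known targets of 2 such regulators held the only calls among these 7 lists. Of 10 known DAF-16 targets, a list that includes sod-3, mtl-1 rose with cadmium in the wild type, and 0 passed in the mutant. The list median was 0.18 in the mutant and 0.67 in the wild type, beside 0.0017 and -0.01 over all genes tested. The wild-type median was 0.037 without replicate 1 of treated wild type and 1.02 without replicate 2. Replicate 1 is the library with the highest summed intestinal, muscle, neuronal and hypodermal markers above, although not the highest median of the intestinal ones. The part of these markers in the list median was not tested. For lys-7, a lysozyme gene, the wild-type difference was 1.02 ± 0.29 and for the linker histone gene hil-1 it was 0.81 ± 0.26, and neither passed (adjusted p = 0.322 and 0.325). Both were picked out here after their values were seen. In treated mutants against treated wild type mtl-1 was lower by a log2 difference of -6.16 ± 0.19 (adjusted p = 5.23e-09), and its interaction was -5.71 ± 0.26 (adjusted p = 3.92e-07). Summed over the 10 targets the level was 1519 and 1682 CPM in treated mutants, 1582 and 1138 in untreated mutants, 2493 and 2042 in treated wild type and 1824 and 1758 in untreated wild type. Without mtl-1, a sum added after the data were seen, it was 1514 and 1679 CPM in treated mutants, 1577 and 1135 in untreated mutants, 2210.02 and 1752 in treated wild type and 1817 and 1753 in untreated wild type. Of the treated wild-type libraries, replicate 1 then lay above both untreated ones and replicate 2 was level with the lower of them. Most of this sum came from sip-1 and icl-1, with 900 and 1066 CPM in replicate 1 of treated wild type. In replicate 2 of the untreated mutants, where the sum was lowest, sip-1 had 458 CPM.

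Of 12 known targets of SKN-1, the factor that activates detoxification genes under oxidative stress, gst-38 rose with cadmium in both strains. This glutathione S-transferase gene had 30.7 and 18.7 CPM in treated mutants, 6.91 and 6.06 in untreated mutants, 42.8 and 57.1 in treated wild type and 3.74 and 4.70 in untreated wild type. The log2 difference was 1.93 ± 0.26 in the mutant (adjusted p = 0.0454) and 3.57 ± 0.28 in the wild type (adjusted p = 6.73e-05), and treated mutants were lower than treated wild type (-1.01 ± 0.24, adjusted p = 0.0396). The difference between the strains' responses was -1.64 ± 0.36 and did not pass (adjusted p = 0.406 by edgeR). The list medians were 0.20 in the mutant and 0.30 in the wild type, beside 0.0017 and -0.01 over all genes tested. Of the 12 targets, 8 were above 0 in the mutant, where 50.4% of all genes tested were. In the wild type 11 were above 0, against 48.7% of all genes. The usual SKN-1 reporter gene gst-4 was at 0.26 ± 0.30 in the mutant and -0.02 ± 0.31 in the wild type, the lowest of the 12 there. Next to gst-38, gst-5 came closest to passing in the wild type, at 0.99 ± 0.20 (adjusted p = 0.0778 by edgeR), with 0.44 ± 0.20 in the mutant. It was picked out after its values were seen. The call of gst-38 in the mutant did not hold with the replicate number as a term, with only the 4 mutant libraries, or when any 1 of 5 libraries was left out (replicate 1 of treated mutants, either untreated mutant library or either treated wild-type library).

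**Figure D4:**
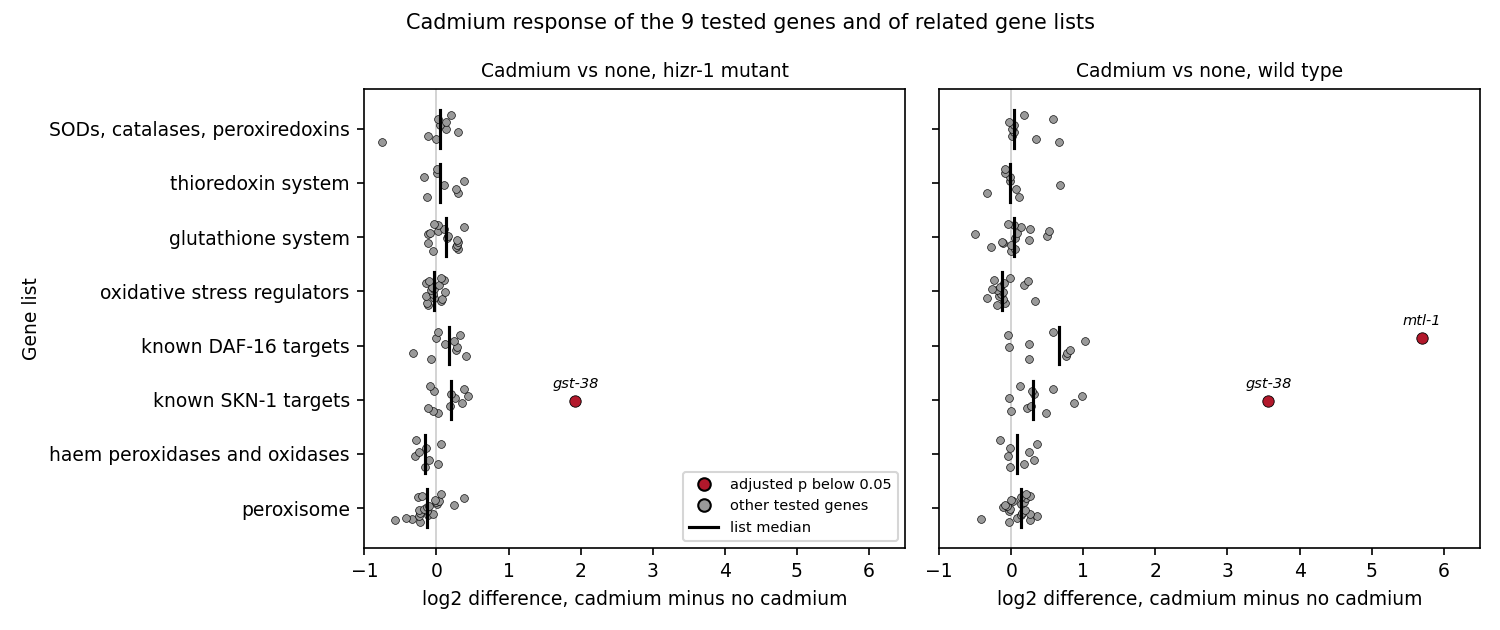
Log2 difference with cadmium (horizontal axis) in the hizr-1 mutant (left) and the wild type (right) for the 9 tested antioxidant enzyme genes and 7 related lists (rows), with a point for each gene, red for adjusted p below 0.05 and a bar for the list median. The enzyme genes lie between -0.75 and 0.66, while gst-38 reaches 1.93 in the mutant and 3.57 in the wild type, and mtl-1 reaches 5.70 in the wild type.

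Markers of other tissues and states held few calls in the cadmium comparisons. With cadmium in the wild type cpr-1 rose among 18 intestinal markers (1.82 ± 0.19) and mtl-1 among 13 dauer and starvation genes, a list in which sod-3 and sod-5 are not included. None of the sperm, oocyte, muscle, neuron or hypodermis markers passed there, with medians of -1.77 for sperm, -0.23 for oocyte and early embryo, -0.08 for muscle, 0.29 for neuron and 0.28 for hypodermis. The medians were 0.05 for intestine and 0.25 for the dauer and starvation genes. In the mutant 0 of all these markers passed, with medians of -0.05 (sperm), -0.03 (oocyte), 0.02 (intestine), 0.06 (muscle), 0.06 (neuron), 0.12 (hypodermis) and 0.15 (dauer and starvation). In treated mutants against treated wild type 7 of 45 sperm markers rose (fer-1, spe-15, spe-42, spe-49, ssp-9, ssp-19 and msp-63), and the median of the 45 was 2.70, where 4.26% of all genes tested passed in either direction. Without replicate 1 of treated wild type, which had the lowest sperm sum, 0 of 45 passed and the median was 2.13. Without either treated mutant library 1 passed, and with only the 4 libraries of the comparison 38 of 43 did. The msp genes are near-identical copies, so the count of msp-63 is uncertain. In the same comparison cpr-1 fell by 1.13 on the log2 scale (adjusted p = 0.00699), and its interaction was -1.81 ± 0.26 (adjusted p = 0.0203). No marker passed between the untreated genotypes, where 0.126% of all genes tested did. The sperm median there was 0.92, with 45 of 45 above 0, against 47.6% of all genes. The oocyte and early embryo median was -0.28, with 0 of 26 above 0. Medians were -0.04 (intestine), -0.21 (muscle), -0.05 (neuron), -0.17 (hypodermis) and -0.39 (dauer and starvation). The summed sperm markers overlapped, with 499 and 241 CPM in untreated mutants and 105 and 307 in untreated wild type.

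The gene with the smallest unadjusted p of the 10 was ctl-2, and the genes whose pattern was most like it were lpr-4, nas-15 and arrd-6. Over the 8 libraries Pearson's r of log2 CPM with ctl-2 was 0.98 for lpr-4, 0.97 for nas-15 and 0.97 for arrd-6, with Spearman's rho of 0.95, 0.98 and 0.95. These are the highest of 15818 genes and are given as a description with no test. Without the 2 libraries farthest from the ctl-2 median, replicate 1 of treated wild type and replicate 2 of untreated wild type, r was 0.90, 0.93 and 0.86. Like ctl-2, each of the 3 genes was highest in replicate 1 of treated wild type, with 36.7 CPM for lpr-4, 11.5 for nas-15 and 6.90 for arrd-6. They were chosen by r over the same 8 libraries, so this shared peak follows from the choice.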

How the data were processed

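Animals, groups and exposure are described above; per the labels' protocols RNA was extracted with Trizol and columns and depleted of ribosomal RNA with Ribo-Zero. Per the submitters' processing notes, the build was WBcel235, and STAR 2.0.4b, featureCounts 1.45 and Subread were used. The release of the annotation, the strand setting and handling of multiply matching reads are not given in the sources used here. Per the file headers, 1 deposited column gave raw counts for each gene, which are whole numbers. The deposited CPM and RPKM columns were the authors' counts scaled to the summed counts and the same per kilobase, per the file headers, and recomputing them gave the same values to within 1e-06. Printed CPM and RPKM were recomputed with TMM-scaled library sizes.

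Tests used the counts: edgeR 4.0.16 (R 4.3.3), quasi-likelihood F test, 2-sided, all 8 libraries in 1 fit with 4 group means, TMM, robust estimates, filterByExpr (minimum count 10, minimum total 15; 15818 genes left). P-values were adjusted by Benjamini-Hochberg within each comparison, over every gene tested, with 0.05 as threshold. SE is the absolute log2 difference over the square root of F, and 95% intervals use the fit's degrees of freedom. Log2 CPM has a prior count of 2. The floor of 3 counts covers counting error only, since the reads carry no stated molecular identifiers and need not be independent. The script was tested on simulated data.

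Symbols came from a gene name table, coordinates from the files; 61.7% of 46364 identifiers had the same span in Ensembl's WBcel235 annotation. Sequences of the members were not used here. Members and gene lists were chosen with earlier results of these data known. Named genes are the members, list genes that passed in any comparison, hizr-1, mtl-1, mtl-2, cdr-1 and prdx-6. The 3 genes most like the member with the smallest p are named too. Also named are bli-3, trxr-1, gcs-1, gst-4, gst-5, skn-1, wdr-23, daf-16, lys-7, hil-1, sip-1 and icl-1. Alternatives were RLE and upper-quartile factors, no filter, DESeq2 1.42.0, only the libraries of a comparison, the replicate number as a block and leaving out each library. All pairs of libraries differed by more than sampling noise (smallest chi-square per degree of freedom 8.57).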

Additional observations from a re-analysis of the deposited data

Results flagged for a closer look

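For the cytosolic catalase gene ctl-1 the libraries lay in opposite orders in the 2 strains, and neither strain's difference passed: both treated mutant libraries were below both untreated ones, and both treated wild-type libraries were above both untreated ones. The difference itself was tested as the interaction, with a log2 value of -1.42 (mutant minus wild type) and an adjusted p of 0.9995 by edgeR, and did not pass. With each library left out in turn it was -2.02 to -1.05, and the wild-type difference was 0.30 to 1.26, against 0.66 with all libraries. The nearest treated and untreated wild-type libraries had 0.761 and 0.749 CPM. The counts behind it were 17 and 10 in treated mutants, 19 and 20 in untreated mutants, 31 and 17 in treated wild type and 21 and 8 in untreated wild type. Groups of 2 libraries are too small to look for single outlying samples.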

How the results depend on the processing

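Over 14 alternatives and 69 fits by comparison, 0 of the enzyme genes passed, and the lowest adjusted p was 0.112 (ctl-2, treated mutant against treated wild type, only those 4 libraries). The replicate number as a block changed the sign or call of 0 of 45 values. Samples with the same number were not shown to be paired (correlations of the replicate difference between groups -0.43 to 0.42), and the block gave 0 genes called with cadmium in the mutant, 34 in the wild type, 562 between the treated and 12 between the untreated genotypes, and 15 in the interaction. Signs turned only for values close to 0 or when 1 library was left out, and the cause was not tested. With cadmium in the wild type sod-2 was 0.047 with upper-quartile factors, 0.0056 with no filter and 0.0012 with only the 4 libraries. With cadmium in the mutant sod-3 was -0.010 with RLE factors and -0.0022 by DESeq2. Between the untreated genotypes ctl-2 was 0.0091 with RLE, 0.070 with upper-quartile factors, 0.024 with no filter, 0.0092 by DESeq2 and 0.017 with only the 4 libraries. In the interaction sod-1 was -0.035 with RLE, -0.071 with upper-quartile factors, -0.015 with no filter and -0.035 by DESeq2, and sod-4 was -0.032, -0.068, -0.0098 and -0.031.

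Ranges with each library left out in turn, for the values whose sign turned, were as follows. For cadmium in the mutant -0.19 to 0.32 for sod-1, -0.30 to 0.46 for sod-3, -0.086 to 0.057 for ctl-2 and -0.024 to 0.31 for prdx-3. For cadmium in the wild type -0.12 to 0.20 for sod-1, -0.12 to 0.07 for sod-2, -0.14 (without replicate 1 of treated wild type) to 1.03 for sod-3, -0.16 to 0.60 for sod-4, -0.084 to 0.10 for ctl-3, -0.085 to 0.18 for prdx-2 and -0.17 to 0.22 for prdx-3. For treated mutant against treated wild type -0.012 to 0.11 for sod-2, -0.54 to 0.64 for sod-3, -0.045 to 0.17 for sod-4 and -0.074 to 0.051 for prdx-3. For untreated mutant against untreated wild type -0.19 to 0.35 for sod-1, -0.19 to 0.012 for sod-2, -0.29 to 0.47 for sod-4, -0.14 to 0.13 for ctl-2, -0.060 to 0.092 for ctl-3 and -0.32 to 0.072 for prdx-3. For the interaction -0.28 to 0.29 for sod-1, -1.02 to 0.15 for sod-3, -0.40 to 0.36 for sod-4, -0.00064 to 0.49 for prdx-2 and -0.093 to 0.30 for prdx-3.

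Calls among the 7 related lists moved more. The count with cadmium in the wild type (2) became 4 with no filter, by DESeq2 and with only the 4 libraries. That in the mutant (1, gst-38) became 0 with the replicate block and with only the 4 libraries, and was 0 to 1 with a library left out. Between the treated genotypes (2) it became 5 with no filter and was 1 to 4 with a library left out, between the untreated ones (0) it became 1 with no filter, and in the interaction (1) it became 2 with no filter and by DESeq2. Over all genes, the 5 calls with cadmium in the mutant became 21 with no filter, 11 by DESeq2, 3 with RLE factors, 0 with only the 4 libraries and 0 to 14 with a library left out. The 45 with cadmium in the wild type became 576 with no filter, 215 by DESeq2, 399 with only the 4 libraries and 17 (without replicate 1 of treated wild type) to 423 (without replicate 1 of untreated wild type) with a library left out. The 674 between the treated genotypes became 1188 with no filter, 1288 with only the 4 libraries and 24 (without replicate 1 of treated wild type) to 1059 (without replicate 2 of untreated wild type) with a library left out, with 138 and 199 without a treated mutant library. The 20 between the untreated genotypes became 630 with no filter, 97 by DESeq2, 0 with only the 4 libraries and 9 (without replicate 1 of treated wild type) to 449 (without replicate 2 of untreated wild type) with a library left out. The 18 of the interaction became 90 with no filter, 28 by DESeq2 and 4 (without replicate 2 of treated wild type) to 71 (without replicate 1 of untreated wild type) with a library left out. The shares of all genes called rest on these counts. Only the 4 libraries of a comparison cannot give the interaction. Where an arm was left with 1 library, it was assumed to vary like the other groups. The depth limits sod-5 and ctl-1, and 2 libraries a group limit the rest: an exact permutation test of 2 against 2 cannot go below 0.333.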
